A study of Mus musculus with 4 samples.

Results

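The constitutive subunits of the proteasome were followed in RNA from sorted cells of the injured mouse retina. The genes were taken by name, as protein-coding genes called Psma, Psmb, Psmc or Psmd with a number, leaving out the inducible or tissue-restricted subunits Psmb8, Psmb9, Psmb10, Psma8 and Psmb11. This gave 34 genes of the 56493 in the count table, and all 34 passed the filter on low counts. All 4 libraries came from the retina of wild-type mice that received an AAV2 vector in the vitreous and, a month later, a crush of the optic nerve. The 2 CrAT libraries came from mice given AAV2-CrAT, where CrAT is carnitine acetyltransferase, and the 2 MCS libraries from mice given AAV2-MCS, whose insert the titles do not spell out. Every title also carries the code NCd8, which the labels do not explain. The labels give neither the age of the mice, nor the promoter of the vector, nor how many animals went into a library. Nothing says that the replicates were separate animals, and a p-value here reflects sample-to-sample spread that may be technical.

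The proteasome is the large protease that degrades proteins marked with ubiquitin. Its core particle is a barrel of alpha rings, which gate the entrance, around beta rings, in which Psmb6, Psmb7 and Psmb5 carry the active sites. Regulatory particles cap the barrel: ATPases (Psmc genes) unfold the substrate, scaffold subunits and receptors bind ubiquitin, and a lid removes the ubiquitin chain. Under interferon, cells make inducible beta subunits that take the place of the constitutive ones in newly assembled particles, and neurons depend on the proteasome for protein turnover far from the cell body. When the proteasome is impaired, the transcription factor Nfe2l1 raises subunit genes through the antioxidant response element in their promoters.

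The libraries held 24494253 to 27097438 counts. The cells are labelled as retinal ganglion cells, but transcripts that mark rods were far more abundant than those that mark ganglion cells. Over 13 ganglion cell markers with enough counts to test, of 15 listed, the summed level was 292.9 to 468.2 CPM (the count relative to the library total, scaled by TMM), against 25331 to 46960 CPM over 10 rod markers. The ganglion cell factor Pou4f2 had 0 counts in 3 libraries and 6 in MCS replicate 2, and Pou4f1 had 0 and 20 in CrAT and 1 and 15 in MCS (replicate 1, then 2). Slc17a6 was higher in replicate 2 of both groups, at 30 and 510 counts in CrAT and 6 and 153 in MCS. Of the 13 tested markers, 9 were higher in replicate 2 in CrAT and 11 in MCS. Jam2 went the other way in both groups, at 3164 and 1856 counts in CrAT and 4762 and 2104 in MCS. Subunit levels below are those of the whole sorted material. In bulk RNA, fewer cells of a type and less RNA per cell cannot be told apart. Crat itself, the gene that the CrAT vector is named for, had 1731 and 1324 counts in CrAT and 953 and 1316 in MCS.

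Promoter sequences from RefSeq (GRCm38.p6) were found for 28 of the 34 genes, in windows from 250 bases before to 50 after the annotated start. Shown are the catalytic subunits with an entry, Psmb5 and Psmb6, and the subunits with the highest and the lowest fold change, Psmd2 and Psmb3, each from 5′ to 3′ and ending just before the RefSeq start or the GENCODE start of the gene, whichever comes first. Capitals mark matches to TGACNNNGC, the core of the antioxidant response element, to CCAAT, to GGGCGG, the GC box, and to the core of the interferon-stimulated response element (GAAA, any 2 bases, GAAA), on either strand.
Psmb5, chr14:54618023-54618245, minus strand: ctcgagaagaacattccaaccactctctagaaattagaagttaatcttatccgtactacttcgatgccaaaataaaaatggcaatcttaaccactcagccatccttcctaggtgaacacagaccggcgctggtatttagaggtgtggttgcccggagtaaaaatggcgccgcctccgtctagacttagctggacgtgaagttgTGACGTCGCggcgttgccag
Psmb6, chr11:70525107-70525356, plus strand: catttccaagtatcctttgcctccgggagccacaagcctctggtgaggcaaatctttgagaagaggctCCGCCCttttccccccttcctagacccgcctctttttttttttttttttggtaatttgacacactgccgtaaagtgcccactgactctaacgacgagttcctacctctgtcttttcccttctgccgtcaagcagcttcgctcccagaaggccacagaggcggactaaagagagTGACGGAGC
Psmd2, chr16:20651402-20651651, plus strand: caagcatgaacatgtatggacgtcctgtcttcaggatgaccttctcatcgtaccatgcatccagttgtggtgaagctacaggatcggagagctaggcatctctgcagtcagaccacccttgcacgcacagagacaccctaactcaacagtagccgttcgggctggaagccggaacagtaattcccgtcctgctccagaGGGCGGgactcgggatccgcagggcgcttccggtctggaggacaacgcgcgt
Psmb3, chr11:97703184-97703398, plus strand: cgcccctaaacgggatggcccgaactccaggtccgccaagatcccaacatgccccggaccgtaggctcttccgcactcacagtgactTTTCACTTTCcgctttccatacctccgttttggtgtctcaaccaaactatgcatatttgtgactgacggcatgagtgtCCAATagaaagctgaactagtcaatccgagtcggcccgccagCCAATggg
Psmb5 and Psmb6 each held 1 match to TGACNNNGC, at bases -47 to -39 and -9 to -1 from the RefSeq start. The Psmb5 sequence ends before that start, at the GENCODE start given below. Over the whole windows 5 of 28 members (17.9%) held it, namely Psmb5, Psmb6, Psmc6, Psmd9 and Psmd12, against 14.6% of 11230 tested protein-coding genes. The GC box was in 18 of 28 (64.3%, against 63.2%) and CCAAT in 11 of 28 (39.3%, against 38.9%). The interferon-stimulated core was in 3 of 28, Psmb3, Psmd4 and Psmd9 (10.7%, against 2.82%). In the windows shown no match overlapped another. A match is a description of the letters and no measure of binding.

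Every subunit was well measured, with at least 694 counts in each library. FPKM, which divides by the summed exon length of a gene, ranged in each library over the members from 7.194 to 13.37 at the lowest to 165.3 to 308.5 at the highest, with medians of 67.59 and 66.24 in CrAT and 52.27 and 81.74 in MCS. The member with the highest mean was Psmb5 at 209.6 FPKM, next to the ATPase Psmc5 at 209.3 and ahead of Psmb6 at 185.2 and Psmb2 at 182.8. These 4 do not separate, since Psmb5 alone ran from 128.4 to 308.5 FPKM over the libraries. At the other end were Psmd9, a chaperone that helps to assemble the base, at 9.752, the lid subunit Psmd11 at 13.09, the chaperone Psmd5 at 18.12 and the catalytic Psmb7 at 21.07 FPKM. Part of this order follows from the length used. Summed exons were 1 to 3 times as long as the longest coding transcript of a member, and 2.95 times for Psmb7. Per kilobase of that transcript Psmb6 was highest at 435 and the chaperone Psmd10 lowest at 25.3 CPM per kilobase, and the 2 scales ranked the 34 members alike with a Spearman rho of 0.91 across genes.

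**Figure D1:**
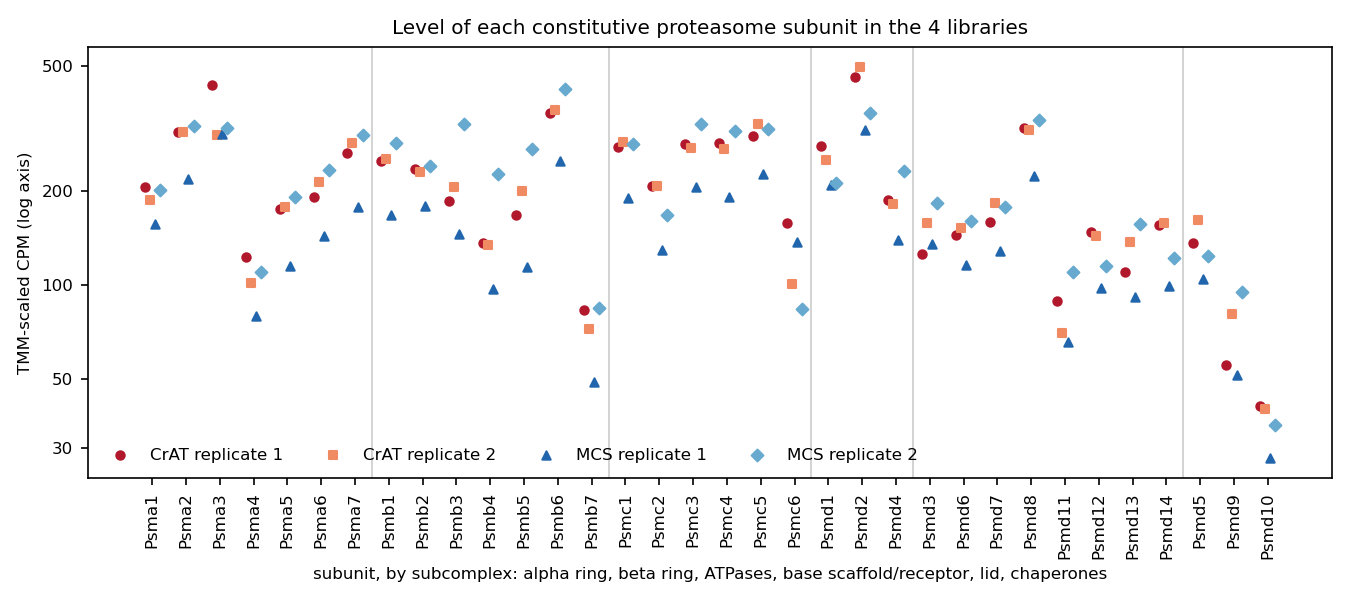
TMM-scaled CPM (log axis) of the 34 subunits in each of the 4 libraries, grouped by subcomplex. MCS replicate 1 is the lowest library for 31 of the 34 subunits (91.2%, against 28.7% of all genes tested). MCS replicate 2 is the highest for 20 (58.8%, against 28.2%).

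No constitutive subunit differed between the groups in edgeR's quasi-likelihood test at an adjusted p of 0.05, where 0% of the 19638 genes tested did. At an unadjusted p under 0.05 there were 0 members, against 4.15% of all genes tested (1.28% higher and 2.87% lower in CrAT). The smallest member p was 0.114, for Psmd2, before adjustment over all genes tested with edgeR. DESeq2 also called none of the 34, with 0.238% of its genes called. The log2 fold changes, CrAT over MCS, lay between -0.27 and 0.53 with a median of 0.16, where all genes tested had a median of 0.01. They were above 0 for 26 of 34 members, against 50.6% of all genes tested. Among the 5823 genes at or above the level of the lowest member, 58.7% were above 0, with a median of 0.07. Standard errors of the members were 0.27 to 0.45, so these libraries could not resolve differences of the size seen in them. For 18 of the 34 members the 95% interval lay within a 2-fold change in either direction, and over all members the intervals reached from -1.31 to 1.22.

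**Figure D2:**
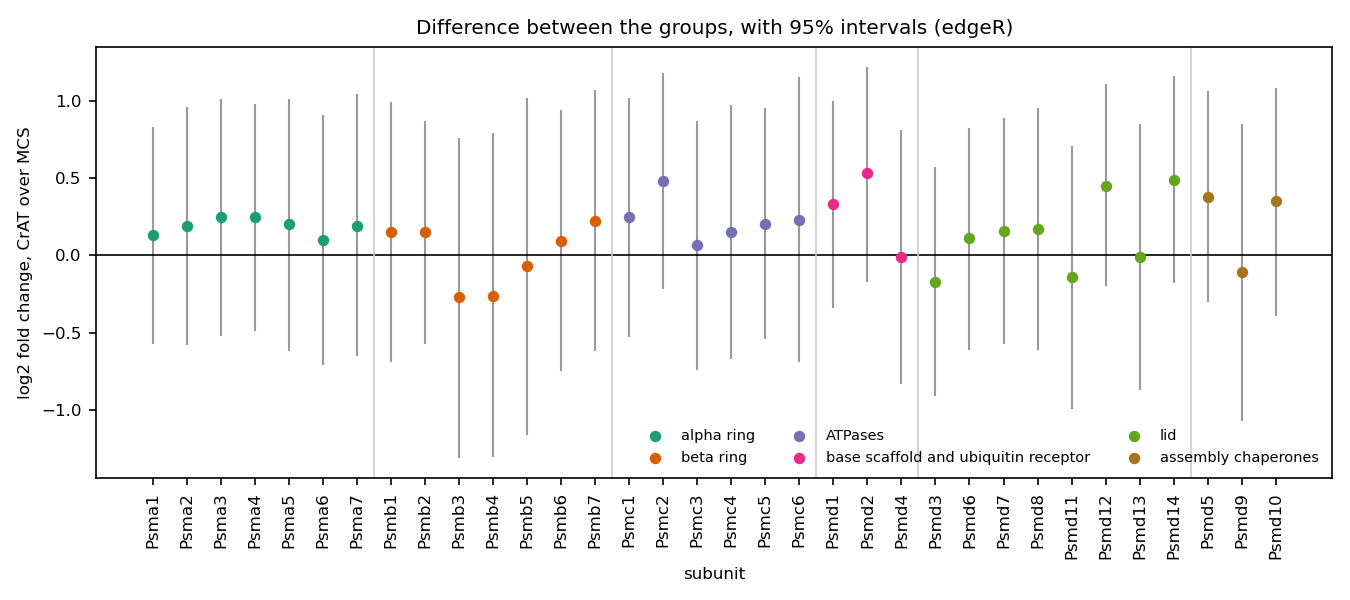
Log2 fold change of each subunit, CrAT over MCS, with its 95% interval from edgeR, colored by subcomplex. All 34 intervals include 0, and the points lie between -0.27 (Psmb3) and 0.53 (Psmd2).

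The alpha ring, the gate of the core particle, gave the narrowest set of fold changes. Its 7 members had log2 fold changes from 0.10 (Psma6) to 0.25 (Psma3 and Psma4), with Psma1 at 0.13, Psma2 and Psma7 at 0.19 and Psma5 at 0.20. Psma4, the alpha subunit with the smallest p, was 122.7 and 101.7 CPM in CrAT (replicate 1, then 2, here and below) against 79.27 and 110 in MCS. Only MCS replicate 1 stood low, and the groups overlapped. Its log2 fold change was 0.25 (SE 0.30, edgeR quasi-likelihood test, adjusted p = 1).

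In the beta ring, the part that holds the active sites, each of the 7 members had both CrAT libraries between the 2 MCS libraries, where 23.3% of all genes tested did. Psmb5 (ENSMUSG00000022193, chr14:54614119-54618022, minus strand, GRCm38), the chymotrypsin-like site, was 167.1 and 200.2 CPM in CrAT against 113.7 and 272.2 in MCS. The 2 MCS libraries were thus the lowest and the highest, and the log2 fold change was -0.07 (SE 0.45). Psmb6 (ENSMUSG00000018286, chr11:70525367-70527858, plus strand), the caspase-like site, was 354 and 362.5 CPM against 249.9 and 421.8, at a log2 fold change of 0.09 (SE 0.35). Psmb7 (ENSMUSG00000026750, chr2:38588036-38644087, minus strand), the trypsin-like site, was 83.24 and 72.49 CPM against 48.9 and 84.38, at a log2 fold change of 0.22 (SE 0.35). For each of these sites the CrAT libraries were close to each other and the MCS libraries far apart. The structural subunits Psmb3 and Psmb4 had the lowest fold changes of all members. Psmb3 was 185.7 and 205.6 CPM in CrAT against 145.8 and 326.8 in MCS, and Psmb4 136.1 and 134.2 CPM against 97.24 and 225.6 CPM. Their log2 fold changes of -0.27 (SE 0.43) and -0.26 (SE 0.43) came from the high value in MCS replicate 2, with MCS replicate 1 the lowest library. Psmb1 and Psmb2 were both at 0.15.

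The subunits in which the groups parted were all Psmc or Psmd genes, of the regulatory particle and its assembly. In 7 of the 34 members the lower CrAT library exceeded the higher MCS library (20.6%), against 15% of all genes tested and 18.8% of the 5823 at or above the level of the lowest member. This share is near the background. The reverse held for 0, against 16.6%. The 7 were Psmc2, Psmd1, Psmd2, Psmd5, Psmd10, Psmd12 and Psmd14, out of 20 Psmc and Psmd members. None of the 14 members of the core particle parted in this way. That core and regulatory genes differ in this respect was not tested.

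Psmd2 (ENSMUSG00000006998, chr16:20651652-20663414, plus strand), a large scaffold of the base that docks ubiquitin shuttles, had the highest fold change of the members. It was 463.6 and 499.3 CPM in CrAT against 314.1 and 355 in MCS, with a gap between the groups wider than the gap between the replicates of either. The group means were 481 ± 25.2 and 335 ± 28.9 CPM (SD, n = 2), and the log2 fold change was 0.53 (SE 0.29, 95% interval -0.17 to 1.22). Psmd14, the lid enzyme that cuts ubiquitin off the substrate, was 154.9 and 157.2 CPM against 99.37 and 122.3, at a log2 fold change of 0.49 (SE 0.28). The ATPase Psmc2 was 207.1 and 207.6 CPM against 129.4 and 167.6, at a log2 fold change of 0.48 (SE 0.29). In both genes the CrAT replicates were nearly equal and MCS replicate 1 was the lowest. All 3 had an adjusted p of 1 by edgeR's quasi-likelihood test and by DESeq2. With the replicate number as a block, Psmd2 had an unadjusted p of 0.0479 and an adjusted p of 0.508 in edgeR.

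The other ATPases had log2 fold changes of 0.07 (Psmc3), 0.15 (Psmc4), 0.20 (Psmc5), 0.23 (Psmc6) and 0.25 (Psmc1), so that all 6 were above 0. Beside Psmd2 in the base, the scaffold Psmd1 was at 0.33 and the ubiquitin receptor Psmd4 at -0.01. The lid held the widest range, from the 0.49 of Psmd14 down. Psmd12 was at 0.45, Psmd8 at 0.17, Psmd7 at 0.16, Psmd6 at 0.11, Psmd13 at -0.01, Psmd11 at -0.14 and Psmd3 at -0.17. Psmd3, the lowest of the Psmc and Psmd genes, was 125.2 and 157.4 CPM in CrAT against 135.5 and 182.3 in MCS, with replicate 2 above replicate 1 in both groups and the groups overlapping (SE 0.31).

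Of the chaperones that assemble the base, Psmd5 had the smallest p. It was 135.8 and 161.6 CPM in CrAT against 104.6 and 123.4 in MCS, a log2 fold change of 0.38 (SE 0.28), with replicate 2 above replicate 1 in both groups. Psmd10, also called gankyrin, was at 0.35. Psmd9 was 55.46 and 80.49 CPM against 51.36 and 95.1 CPM, with wider gaps between replicates than between groups, and its log2 fold change was -0.11 (SE 0.39).

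The spread between the MCS replicates ran through nearly all of the subunits. MCS replicate 2 was above MCS replicate 1 for 33 of 34 members, against 49.9% of all genes tested, with a median log2 ratio of 0.57, against 0.00. The ratio was largest in the beta ring, at a median of 0.79, and reached 1.26 for Psmb5, 1.21 for Psmb4 and 1.16 for Psmb3. Between the CrAT replicates the median was 0.01, and 18 of 34 members were higher in replicate 2. The summed level of the 34 members was 7029 and 7021 CPM in CrAT against 5077 and 7437 in MCS. For 27 of the 34 members the gap between the MCS replicates was larger than the difference between the groups. The same share over all genes was not computed. A gap between single libraries varies more than a difference between group means, so a majority is no result by itself.

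MCS replicate 1 also stood apart in other transcripts. Malat1, a nuclear noncoding RNA, had 31777 counts there and 8475 to 9722 in the other 3 libraries. Over 7 of 9 listed nuclear retained RNAs that could be tested, the summed level was 1483 CPM there and 415 to 548.8 CPM in the others. Malat1 is 1 of the 7 and made up most of that sum. Over the 7, the median log2 ratio of MCS replicate 2 to 1 was -0.97, with 1 higher in replicate 2. Ribosomal protein genes, another large housekeeping complex, had a median log2 ratio of 0.61 between MCS replicates 2 and 1, with 76 of 77 higher in replicate 2. Their summed level was lowest in MCS replicate 1 (9106 CPM) and highest in MCS replicate 2 (13615 CPM), with CrAT at 12424 and 11830. Markers of some cell types followed other lines. The 10 markers of Mueller glia together were higher in both MCS libraries, at 15266 and 12456 CPM in CrAT against 22882 and 20626 in MCS. Rod markers were higher in replicate 1 of both groups. They reached 46960 and 45507 CPM in replicate 1 of CrAT and MCS, and 25331 and 27222 CPM in replicate 2. Immediate early genes, which respond fast to stress and handling, reached 4652 CPM in MCS replicate 1 and 2250 to 2715 in the others, and endothelial markers 838.3 CPM and 334.7 to 429.2. The part of these differences in the subunit levels was not tested.

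The direction of the comparison turned on which MCS library was kept. Without MCS replicate 2 the median log2 fold change of the members was 0.50, with 33 of 34 above 0. Without MCS replicate 1 it was -0.10, with 10 of 34 above 0. Left-out CrAT libraries moved it little, to 0.14 without CrAT replicate 1 and 0.19 without CrAT replicate 2. Psmb3 and Psmb4 were both at -0.74 without MCS replicate 1, with unadjusted p of 0.0442 and 0.0383 and no adjusted p under 0.713 for any member by edgeR's quasi-likelihood test. Only 8 members kept their direction whichever 1 library was left out. They were the 7 subunits in which the groups parted and Psma4. For those 7 the kept direction follows from the order of the libraries already given, so it is no separate support. Psma4 ran from 0.03 without MCS replicate 1 to 0.51 without MCS replicate 2, and Psmd10 from 0.19 to 0.54 in the same fits. Psmd2 stayed between 0.44 and 0.62 and Psmd1 between 0.25 and 0.42 over all 4 left-out libraries.

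**Figure D3:**
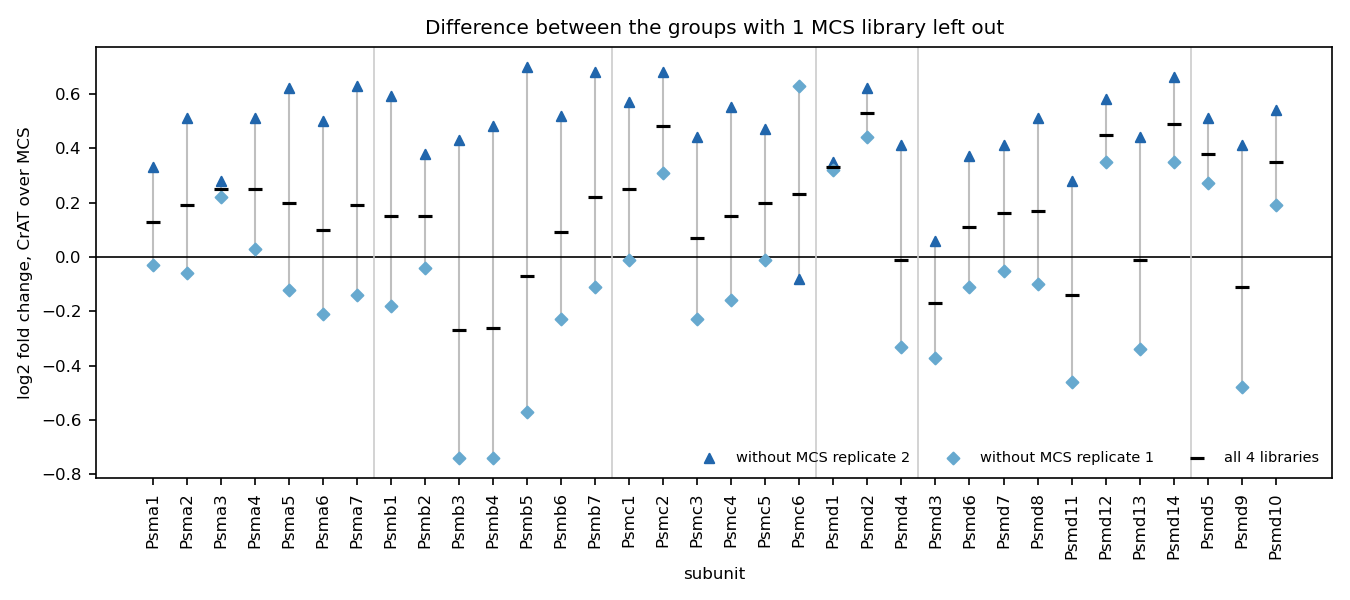
Log2 fold change of each subunit, CrAT over MCS, with all 4 libraries (bars), without MCS replicate 1 (diamonds) and without MCS replicate 2 (triangles). Without MCS replicate 1 the values run from -0.74 to 0.63, and without MCS replicate 2 from -0.08 to 0.70.

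Among the members the gap between replicates went with the base composition of the transcript. GC content of the longest coding transcript (GENCODE M21) was 37% for Psmc6 to 58.3% for Psmd3. Across the 34 members it had a Spearman rho of 0.60 with the log2 ratio of MCS replicate 2 to 1, 0.45 with that of CrAT replicate 2 to 1 and -0.60 with the fold change between the groups. Across 14103 tested protein-coding genes with a count in every library the same 3 values were 0.41, 0.34 and -0.24. These describe genes that share the same 4 libraries, and genes are not independent replicates. The 17 members with lower GC were at a median of 0.23 (CrAT over MCS, log2), with 16 above 0, and the 17 with higher GC at 0.09, with 10 above 0.

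The ATPase Psmc6, the member with the lowest GC content, was also the only one lower in MCS replicate 2 than in MCS replicate 1. It was 157.5 and 100.3 CPM in CrAT against 136.7 and 83.44 in MCS, so that replicate 2 was the lower one in both groups. Psma3, at 40.8% GC, was 436.8 and 300.6 CPM in CrAT against 303.9 and 318.2 in MCS. Psma2, at 39.4% GC, did not follow them, with log2 ratios of replicate 2 to 1 of 0.56 in MCS and 0.00 in CrAT. These 3 genes were singled out after their values were seen. When each library was adjusted for GC content, MCS replicate 1 was the lowest library for all 34 members and the median log2 ratio of MCS replicate 2 to 1 was 0.62. The group difference had a median of 0.15 over the members after that adjustment, against 0.04 over all genes in that fit. The groups parted in 6 of the 34 members, with CrAT higher. Before the adjustment 15% of all genes tested parted in that direction. The share over all genes after it was not computed, so this count is no result about the members. Psmb5 moved from -0.07 to 0.15, Psmd3 from -0.17 to 0.09, Psmd4 from -0.01 to 0.10 and Psmd13 from -0.01 to 0.06.

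**Figure D4:**
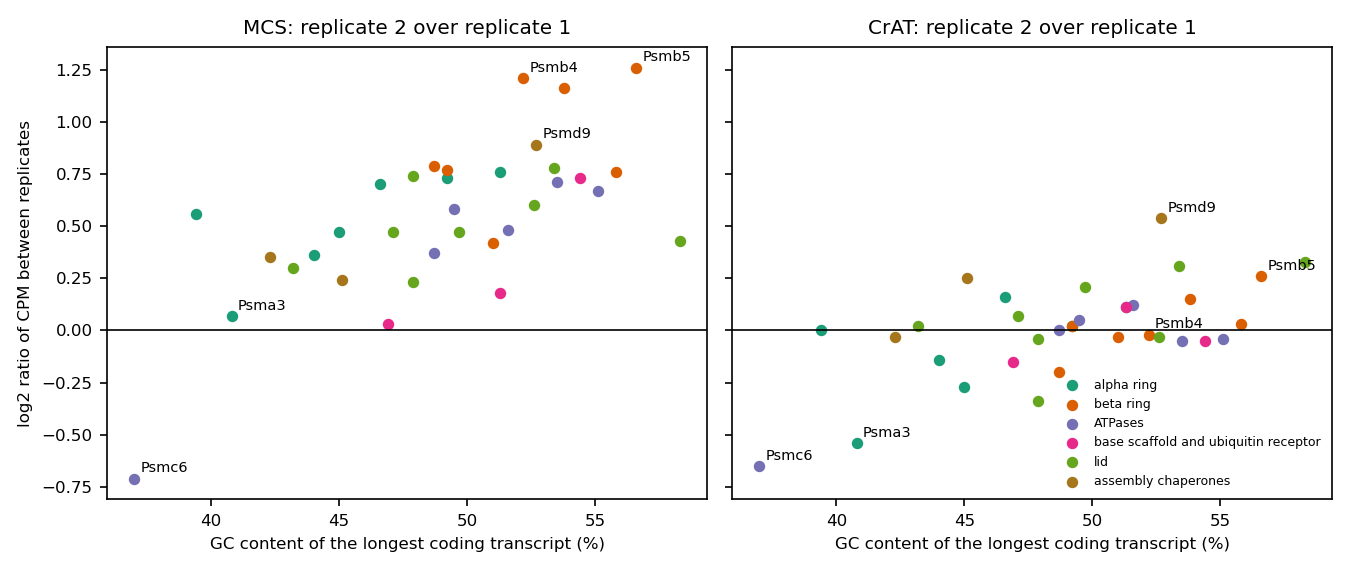
Log2 ratio of CPM in replicate 2 over replicate 1, for MCS (left) and CrAT (right), against the GC content of the longest coding transcript of each subunit. Psmc6 lies at 37% GC with ratios of -0.71 and -0.65, and Psmb5 at 56.6% GC with 1.26 and 0.26.

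The inducible beta subunits could be set against the constitutive ones they replace within each library. Psmb9, the counterpart of Psmb6, was 24.15 and 42.93 FPKM in CrAT and 7.424 and 8.269 FPKM in MCS. Relative to Psmb6 it was at 13.2% and 22.3% in CrAT and at 5.48% and 3.6% in MCS, on the FPKM scale. The groups did not overlap, and the log2 ratio differed by 1.95, from a mean of -2.54 in CrAT (SD 0.54) to -4.49 in MCS (SD 0.43, n = 2 each). In edgeR Psmb6 was itself higher in CrAT, by 0.09, which lowers the ratio. The difference thus came from Psmb9, at 2.14. Psmb8 was at 13% and 19.4% of Psmb5 in CrAT and at 13.8% and 5.48% in MCS, so that MCS replicate 1 fell between the CrAT libraries and the groups overlapped. Psmb8 itself was higher in both CrAT libraries, at 23.44 and 42.88 FPKM against 17.71 and 16.92 FPKM, while Psmb5 was lowest in MCS replicate 1 and highest in MCS replicate 2. Psmb10 relative to Psmb7 was at 189% and 392% in CrAT and at 207% and 179% in MCS, again with overlap. That Psmb10 exceeds Psmb7 depends on the length used. Per kilobase of the longest coding transcript it was at 83.3% and 173% in CrAT and at 91.4% and 79.1% in MCS. With 2 libraries in a group an exact test of such a ratio cannot give a small p, and none is given.

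**Figure D5:**
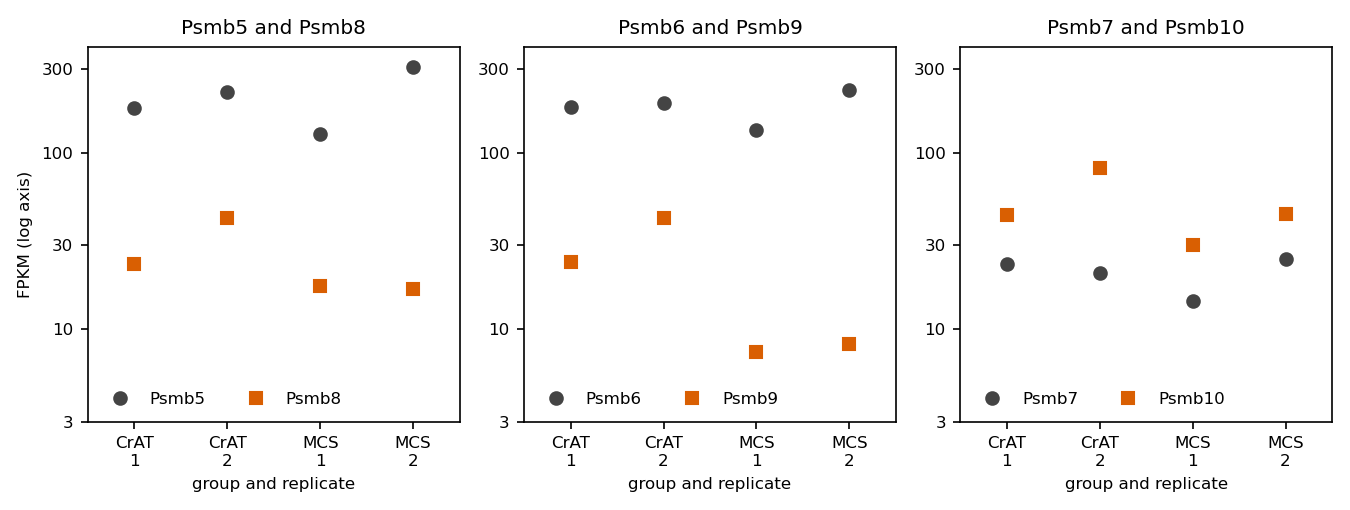
FPKM (log axis) of each constitutive catalytic subunit (circles) and its inducible counterpart (squares) in the 4 libraries. Psmb9 is at 24.15 and 42.93 FPKM in CrAT and 7.424 and 8.269 FPKM in MCS, while Psmb6 runs from 135.5 to 229.6 FPKM.

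The core and the regulatory genes kept nearly the same balance in 3 of the 4 libraries. Summed FPKM of the 14 Psma and Psmb members was 109% and 108% of that of the 20 Psmc and Psmd members in CrAT replicates 1 and 2, 106% in MCS replicate 1 and 129% in MCS replicate 2. MCS replicate 2 was thus the library rich in core subunits, and in it the beta ring summed to 1855 CPM, against 1410 and 1457 CPM in CrAT and 1002 CPM in MCS replicate 1. The log2 ratio differed by -0.11 between the groups, with an SD of 0.01 in CrAT and 0.20 in MCS, which does not exceed the spread between the MCS replicates. From the median log2 FPKM of each set in place of the sums, the log2 ratio was 0.67 and 0.68 in CrAT against 0.69 and 1.25 in MCS, a difference of -0.30 that MCS replicate 2 alone carried.

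Beyond the members, 39 genes of the proteasome pathway were compared, of 40 listed, and none passed in edgeR. Their median log2 fold change was 0.15, with 26 above 0 (66.7%, against 50.6% of all genes tested) and 13 below. In 14 the CrAT libraries were both the higher ones (35.9%, against 15% of all genes tested). In 2 they were both the lower ones (5.13%, against 16.6%). Among the 5823 genes at or above the level of the lowest constitutive subunit, 58.7% had a fold change above 0. Of those 5823, 18.8% had both CrAT libraries higher and 12.1% both lower. Not all of the 39 reach that level. At an unadjusted p under 0.05 in edgeR there were 2 higher (Psmb8 and Psmb9) and 1 lower (Psme4). Of all genes tested, 1.28% were higher and 2.87% lower at that level. DESeq2 called Psmb9 among the 39 genes (log2 fold change 2.15, adjusted p = 0.000767) and no other. The inducible subunits had log2 fold changes of 2.14 (Psmb9, SE 0.36), 0.98 (Psmb8, SE 0.36) and 0.81 (Psmb10, SE 0.39) in edgeR, each with an adjusted p of 1. All 3 were higher in both CrAT libraries, beside constitutive counterparts at 0.09, -0.07 and 0.22. Without CrAT replicate 2, the library highest in all 3, the values were 1.71 for Psmb9, 0.53 for Psmb8 and 0.33 for Psmb10. Which cells these transcripts came from was not tested. Microglia markers, over 8 of 10 listed that could be tested, summed to 33.6 and 30.44 CPM in CrAT against 36.03 and 34.95 in MCS.

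Psme1 and Psme2, the subunits of the interferon-inducible PA28 activator, were higher in both CrAT libraries as well. Psme1 was 105 and 163 CPM in CrAT against 74.88 and 103.8 in MCS, and Psme2 91.91 and 122 CPM against 59.44 and 83.66 CPM. Their log2 fold changes were 0.59 (SE 0.35) and 0.58 (SE 0.32). Without CrAT replicate 2 they were 0.25 and 0.38, and without MCS replicate 1 0.37 and 0.36. Psme4, the PA200 activator of the nuclear proteasome, went the other way, at 8.587 and 11.35 CPM in CrAT against 20.31 and 25.46 in MCS. Its log2 fold change of -1.20 (SE 0.37) was the lowest of the list, with an unadjusted p of 0.0171 and an adjusted p of 1 in edgeR and 0.561 in DESeq2.

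The 4 regulators of subunit transcription had no groups that parted. Over all genes tested the groups parted with CrAT higher in 15% and lower in 16.6%, so with 4 genes this says little. Nfe2l1 was 114.9 and 174.8 CPM in CrAT against 150.3 and 119.3 in MCS, a log2 fold change of 0.10 (SE 0.33) with the groups overlapping. The related factor Nfe2l2 was at -0.02, Ddi2, the protease that activates Nfe2l1, at -0.27, and Ngly1, which removes sugars from it, at 0.08. All 4 changed sign when 1 library was left out, with Nfe2l2 between -0.43 and 0.52, Ddi2 between -0.68 and 0.07 and Ngly1 between -0.27 and 0.50. Activity of these proteins is not measured by transcript level.

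Among the genes that deliver substrates, Ufd1, a cofactor of the segregase Vcp, was 169.3 and 197.7 CPM in CrAT against 117.4 and 144.4 in MCS, at a log2 fold change of 0.49 (SE 0.29). The proteasome-bound deubiquitinase Usp14 was 147 and 160 CPM against 105.4 and 131.1, at a log2 fold change of 0.38 (SE 0.28), or 0.23 without MCS replicate 1. The groups did not overlap in Ufd1 or Usp14, and edgeR gave each an adjusted p of 1. Of the 6 assembly factors, among them Pomp and the Psmg chaperones, none had groups that parted, and the median log2 fold change was 0.06. Over all genes tested the groups parted with CrAT higher in 15% and lower in 16.6%, so none in so short a list says little.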

How the data were processed

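RNA of 4 samples was analysed, grouped by title. Per the labels' protocols, a SMART-seq low-input kit, which does not mark strand, gave the cDNA. The submitters' processing notes list mm10 and GRCm38.p6 as builds and STAR 2.7.2b as a tool. For the annotation and the counting rule, nothing is given in the sources used here.

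Deposited were estimated counts per gene, whole in the authors' table, and the authors' FPKM. FPKM times exon length gave the counts within 0.5, with 43.6% to 44.9% of values above 0 not whole within 0.02. Pseudogenes named for members held at most 1.57% of a parent's counts. A further 4 columns of other samples were not used.

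The 19638 genes kept by filterByExpr were scaled by TMM (factors 0.97 to 1.02) and tested with edgeR 4.0.16 (R 4.3.3, quasi-likelihood, group only, two-sided, Benjamini-Hochberg, threshold 0.05). The common biological coefficient of variation was 0.404. Standard errors and 95% intervals derive from the F statistic. Alternatives included DESeq2 1.42.0, limma 3.58.1 on log2(FPKM + 0.1) and, chosen after seeing the data, GC-adjusted offsets (lowess span 0.3). The procedure was tested on simulated data.

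Members, gene lists and naming rules were chosen with earlier results of these data known. Values in every library are given for the catalytic subunits, the 3 highest and 3 lowest fold changes, the highest and lowest mean FPKM, the smallest p of each subcomplex, and of the pathway list Psmb8, Psmb9, Psmb10, Nfe2l1 and the 6 others with the smallest p, of which 1 is not reported here.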

Additional observations from a re-analysis of the deposited data

How the results depend on the processing

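No constitutive subunit passed an adjusted p of 0.05 under any setting run. Over all genes edgeR called 0 (815 had an unadjusted p under 0.05), or 2 without the filter on low counts, and DESeq2 called 49. The median log2 fold change of the 34 members was 0.11 to 0.20 under the other scalings, filters, tests and the GC adjustment, and -0.10 to 0.50 when 1 library was left out. In those fits the lone library of a group is assumed to vary like the others. In them the pathway list had medians of 0.08 to 0.40. Taken from medians over members, the core to regulatory log2 ratio differed by -0.30, carried by MCS replicate 2.

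Replicate numbers are shared by only 2 pairs, whose deviations had a correlation of 0.39 across 19638 genes, which does not establish pairing. With a replicate block 0 genes were called and the member median was 0.20, with Psmd4 at 0.04, Psmd13 at 0.03 and Psmb5 at 0.05. Psmd4 and Psmd13 were at 0.00 in DESeq2, with RLE size factors and without the filter, and Psmb5 at 0.00 in limma on FPKM. After GC adjustment Psmd4 was at 0.10, Psmd13 at 0.06, Psmd3 at 0.09 and Psmb5 at 0.15.

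Members that changed sign when 1 library was left out ran over these log2 ranges in the alpha ring: Psma1 -0.03 to 0.33, Psma2 -0.06 to 0.51, Psma3 -0.05 to 0.51, Psma5 -0.12 to 0.62, Psma6 -0.21 to 0.50 and Psma7 -0.14 to 0.63. In the beta ring the ranges were Psmb1 -0.18 to 0.59, Psmb2 -0.04 to 0.38, Psmb3 -0.74 to 0.43, Psmb4 -0.74 to 0.48, Psmb5 -0.57 to 0.70, Psmb6 -0.23 to 0.52 and Psmb7 -0.11 to 0.68. For the ATPases they were Psmc1 -0.01 to 0.57, Psmc3 -0.23 to 0.44, Psmc4 -0.16 to 0.55, Psmc5 -0.01 to 0.47 and Psmc6 -0.13 to 0.63. For the Psmd genes they were Psmd11 -0.46 to 0.28, Psmd13 -0.34 to 0.44, Psmd3 -0.37 to 0.06, Psmd4 -0.33 to 0.41, Psmd6 -0.11 to 0.37, Psmd7 -0.05 to 0.41, Psmd8 -0.10 to 0.51 and Psmd9 -0.48 to 0.41. Nfe2l1 ran from -0.21 to 0.38. The cause of these shifts was not tested.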
